A study of Homo sapiens with 12 samples.

Results

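The 10 genes described here handle gemcitabine, a deoxycytidine analog given against pancreatic ductal adenocarcinoma (PDAC): SLC29A1, SLC29A2, SLC28A1, SLC28A3, DCK, CDA, DCTD, RRM1, RRM2 and RRM2B. They were taken by gene symbol and not by value from the 48114 genes of the deposited tables, and all 10 were found. The choice was made with earlier results of these data known. RNA was sequenced from 12 libraries of 2 PDAC cell lines, in 4 groups of 3. PANC-1 cells, which the study uses as a basal-like line, were harvested 48 h after receiving siCtrl, a non-targeting control, or siRNAs at 40 nM that target the splicing regulators QKI (siQKI) or RBFOX2 (siRBFOX2). HPAF-II cells, the classical line, received siCtrl according to the labels. Each line stands for a single tumor, and no source says that the libraries of a group came from separate cultures, so p-values measure the spread between these libraries, which may be technical. The knockdowns address how far expression in these cells depends on QKI or RBFOX2.

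Gemcitabine is hydrophilic and enters cells through nucleoside transporters. SLC29A1 (ENT1) and SLC29A2 (ENT2) carry nucleosides down their gradient, and SLC28A1 (CNT1) and SLC28A3 (CNT3) carry them together with sodium. Inside the cell DCK adds the first phosphate, which is the rate-limiting step of activation, while CDA deaminates the drug and DCTD deaminates its monophosphate. RRM1 is the large subunit of ribonucleotide reductase, the enzyme that makes deoxynucleotides and is inhibited by gemcitabine diphosphate. RRM2 is its small subunit in cycling cells and RRM2B is the p53-inducible small subunit.

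Values are normalized counts, which the authors obtained by scaling the counts of each library with its size factor. The values of a library are whole multiples of a step that is not a sequenced fragment, since 82.1% to 84.8% of low values were multiples of 3 steps, so depth in fragments is unknown and error was taken from the replicates. Both siRNAs lowered their target. QKI was 25909, 24539 and 26150 in siCtrl libraries and 4630, 5453 and 5020 in siQKI libraries, 19.7% of the control mean. RBFOX2 was 15355, 15508 and 15424 in siCtrl libraries and 2403, 2171 and 1712 in siRBFOX2 libraries, 13.6% of the control mean. RBFOX2 was also lower in siQKI libraries, at 12520 to 12778 (81.9% of the control mean, adjusted p = 0.0207 by limma). Of 4 immune and endothelial markers, PTPRC, PECAM1 and VWF lay between 0 and 44.6, while CD68, a lysosomal protein known from macrophages, was at 21547 to 56672 in all libraries and fell in both knockdowns (log2 fold change -0.49 in siQKI and -0.33 in siRBFOX2). Of 5 epithelial markers, E-cadherin (CDH1) rose in both knockdowns, by 1.39 ± 0.11 (SE) in siQKI and 0.53 ± 0.11 in siRBFOX2. KRT18 fell in both (-0.20 and -0.35), and KRT8 and KRT19 fell in siRBFOX2 (both -0.23). EPCAM did not pass the test in either (-0.12 and -0.15). Of 4 mesenchymal markers, VIM and ZEB1 fell in siQKI (-0.13 and -0.28) and did not pass in siRBFOX2 (-0.05 and 0.02). CDH2 rose in both knockdowns (0.26 and 0.22), and FN1 passed in neither (0.47 and 0.92). The part of these markers in the results below was not tested. In bulk RNA, fewer cells of a kind and less RNA per cell cannot be told apart.

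Of the 10 genes, 8 were expressed well enough in PANC-1 to be tested, with a mean of at least 10 over the 9 PANC-1 libraries. SLC28A1 and SLC28A3 did not reach it. Normalized counts were compared on the log2(count + 1) scale with limma in a single fit over 22544 genes, and a gene was called when its Benjamini-Hochberg adjusted p was under 0.05. After siQKI, 6 of the 8 genes changed, with SLC29A2, CDA, RRM2 and RRM2B higher and DCTD and RRM1 lower. After siRBFOX2, 6 of the 8 also changed, with SLC29A2, CDA, RRM2 and RRM2B higher and SLC29A1 and RRM1 lower. The 3 siCtrl libraries serve as reference for both, and the lists are therefore not independent of each other. The response to either siRNA was wide. Over all genes tested, 33.0% were called in siQKI (14.9% higher and 18.1% lower) and 26.5% in siRBFOX2 (12.0% higher and 14.5% lower). With the libraries rescaled to their upper quartile, the calls in siQKI split into 4225 higher and 3057 lower genes, against 3362 and 4070 with the authors' size factors. The libraries of the knockdown did not overlap with those of siCtrl for 7 of the 8 genes in siQKI and 6 of the 8 in siRBFOX2, beside 44.7% and 37.9% of all genes tested. Most of the shifts were small, and only CDA in both knockdowns and DCTD in siQKI moved by at least 1.4-fold.

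**Figure D1:**
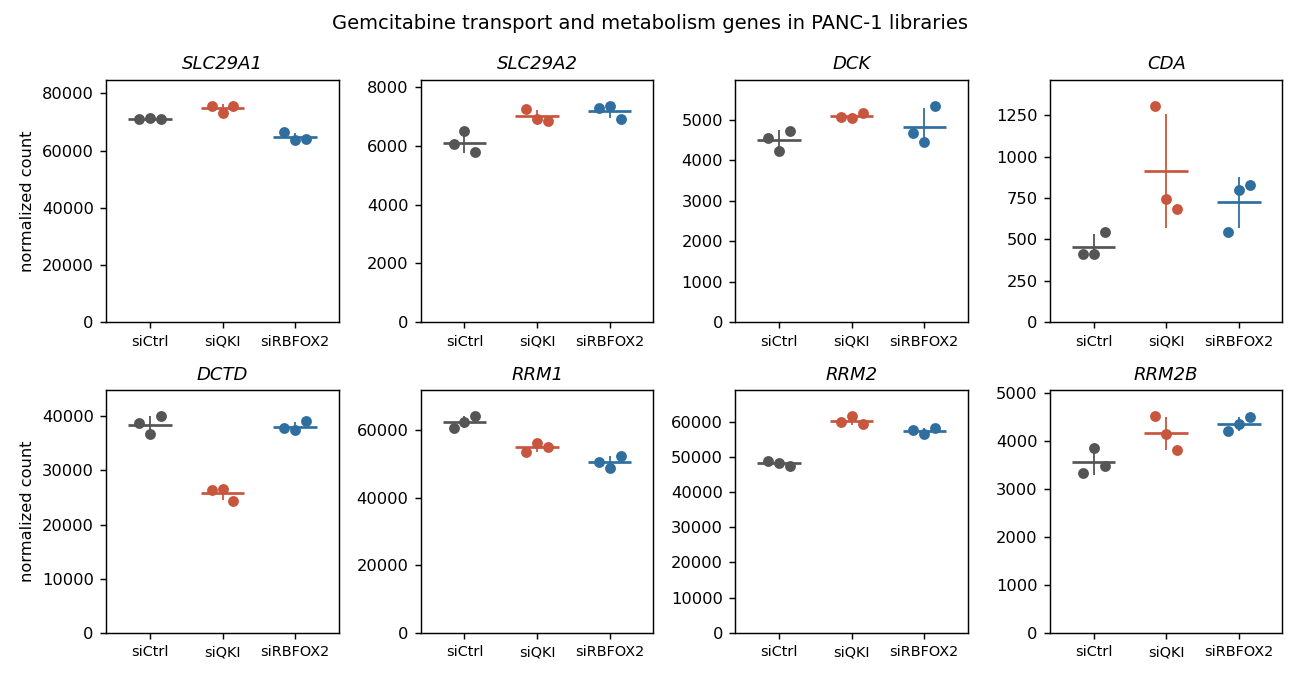
Normalized counts (axes from 0) of the 8 genes tested, in the 3 siCtrl, 3 siQKI and 3 siRBFOX2 libraries of PANC-1. Points are libraries, horizontal lines are means and vertical lines are 1 SD, and the siQKI libraries of DCTD (24378 to 26494) lie below all others.

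Among the 10 genes, the transporter transcripts above the filter in PANC-1 were those of the equilibrative SLC29A1 and SLC29A2. SLC29A1 (chr6:44219586-44234144, hg38) was among the strongly expressed of the 10 genes, at 71211, 71301 and 70924 in siCtrl, 75654, 73124 and 75690 in siQKI, and 66460, 63701 and 64137 in siRBFOX2 libraries. The 3 groups did not overlap, with siQKI the highest and siRBFOX2 the lowest. The fall in siRBFOX2 passed the test (log2 fold change -0.14 ± 0.03 SE, adjusted p = 0.00838), although not without the mean-variance trend (adjusted p = 0.0509). The difference of siQKI from siCtrl did not pass it (0.07 ± 0.03, 95% confidence interval -0.00 to 0.15, adjusted p = 0.127), and did pass with upper-quartile rescaling (0.13, adjusted p = 0.00645). Set directly against each other, siQKI libraries were higher than siRBFOX2 libraries by 0.21 ± 0.03 (adjusted p = 4.21e-04).

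SLC29A2 (chr11:66362521-66372446) shifted upward in both knockdowns. Its normalized counts were 6049, 6495 and 5802 in siCtrl, 7255, 6922 and 6862 in siQKI, and 7300.2, 7369 and 6901 in siRBFOX2 libraries. All 6 knockdown libraries lay above all siCtrl libraries. The rise was 0.20 ± 0.06 in siQKI (adjusted p = 0.0135) and 0.23 ± 0.06 in siRBFOX2 (adjusted p = 0.00620) on the log2 scale, and the siQKI call was lost without siCtrl replicate 3 (adjusted p = 0.0670) or siQKI replicate 1 (adjusted p = 0.0556). The knockdowns differed from each other by -0.04, with a 95% confidence interval from -0.16 to 0.09. The gene overlaps the annotated antisense gene AP001107.9, and the strand used in counting is not stated, so reads of the pair cannot be told apart.

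The concentrative transporters among the 10 genes were near 0 in PANC-1. SLC28A1 (chr15:84884661-84975649) was listed at 0 in 8 of the 9 libraries and at 6.29 in siQKI replicate 3. SLC28A3 (chr9:84275457-84368727) was listed at 0 in 7 of the 9, at 46.9 in siCtrl replicate 1 and at 11.5 in siQKI replicate 3. No fold change is given for either. Per kilobase of its principal transcript (GENCODE v29, 2.326 and 2.514 kb), SLC29A1 stood at 30587 ± 84.8 normalized counts (SD, n = 3) in siCtrl and SLC29A2 at 2433 ± 140.

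DCK (chr4:70993563-71030914), the activating kinase, showed no called change. It measured 4541, 4235 and 4720 in siCtrl, 5063, 5036 and 5180 in siQKI, and 4681, 4442 and 5348 in siRBFOX2 libraries. All siQKI libraries lay above all siCtrl libraries, while the siRBFOX2 libraries overlapped with them. The log2 fold change was 0.18 ± 0.07 in siQKI (95% confidence interval 0.03 to 0.33, adjusted p = 0.0659) and 0.10 ± 0.07 in siRBFOX2 (-0.05 to 0.25, adjusted p = 0.363). The siQKI difference passed the threshold in 5 of 18 alternative settings, with adjusted p from 0.0152 to 0.224 over the 18. These were upper-quartile rescaling, a fit of siQKI and siCtrl alone, a block for the replicate number, and the omission of siRBFOX2 replicate 2 or 3, which enter only the shared estimate of spread. The end of the neighbouring gene MOB1B on the same strand lies within the record of DCK and may add reads to it.

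The 2 deaminases moved in opposite directions after QKI knockdown. DCTD (chr4:182890091-182917611) was 38742, 36679 and 39962 in siCtrl and 26364, 26494 and 24378 in siQKI libraries. Every siQKI library was far below every siCtrl library. The mean fell to 66.9% of control (log2 fold change -0.58 ± 0.04, adjusted p = 1.52e-07), and the call held in all 18 alternative settings, between -0.61 and -0.52. In siRBFOX2 libraries DCTD was 37780, 37450 and 39051, within the range of siCtrl (-0.01 ± 0.04, 95% confidence interval -0.11 to 0.08, adjusted p = 0.872). The direct comparison of siQKI with siRBFOX2 gave -0.57 ± 0.04 (adjusted p = 4.89e-07), so the response of DCTD differed between the knockdowns. No other annotated gene overlaps DCTD.

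CDA (chr1:20588948-20618905) was low and variable in PANC-1. It measured 411, 415 and 545 in siCtrl, 1309, 747 and 687 in siQKI, and 547, 798 and 830 in siRBFOX2 libraries. The knockdown libraries lay above siCtrl, by only 547 against 545 at the closest point. Its log2 fold change was 0.95 ± 0.23 in siQKI (adjusted p = 0.00474) and 0.65 ± 0.23 in siRBFOX2 (adjusted p = 0.0483). The siQKI value rests in part on replicate 1, without which it was 0.66 (adjusted p = 0.0255). The siRBFOX2 call was lost in 10 of 18 alternative settings (adjusted p from 0.0163 to 0.166), among them the omission of siCtrl replicate 1 or 2, siQKI replicate 2, or siRBFOX2 replicate 2 or 3. A difference between the knockdowns was not detected (0.30, 95% confidence interval -0.19 to 0.79, adjusted p = 0.426).

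The subunits of ribonucleotide reductase split in both knockdowns, with the large subunit lower and both small subunits higher. RRM1 (chr11:4094685-4138932) was 60741, 62413 and 64110 in siCtrl, 53509, 56361 and 55004 in siQKI, and 50627, 48837 and 52284 in siRBFOX2 libraries. The 3 groups did not overlap, and siRBFOX2 was the lowest. RRM1 fell by 0.18 ± 0.04 on the log2 scale in siQKI (adjusted p = 0.00185) and by 0.30 ± 0.04 in siRBFOX2 (adjusted p = 4.24e-05). The 2 knockdowns differed by 0.12 ± 0.04 (adjusted p = 0.0400), a call lost in 9 of 18 alternative settings (adjusted p from 0.00848 to 0.156), among them the omission of siCtrl replicate 2, siQKI replicate 2 or 3, or siRBFOX2 replicate 1 or 2. The antisense gene RRM1-AS1 overlaps RRM1.

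RRM2 was 48925, 48316 and 47315 in siCtrl, 59855, 61455 and 59171 in siQKI, and 57509, 56595 and 58100.2 in siRBFOX2 libraries. All 6 knockdown libraries were above siCtrl, and the siQKI libraries were above those of siRBFOX2. The log2 fold change was 0.32 ± 0.03 in siQKI (adjusted p = 4.44e-06) and 0.25 ± 0.03 in siRBFOX2 (adjusted p = 7.42e-05), and the difference between the knockdowns was 0.07 ± 0.03 (95% confidence interval -0.01 to 0.14, adjusted p = 0.201). Both rises and both falls of RRM1 against siCtrl held in all 18 alternative settings. The RRM2 record of the files spans chr2:10122568-10211730 and so runs past RRM2 over the genes C2orf48 and AC007240.1, whose reads it may include.

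RRM2B (chr8:102204501-102239118) had the lowest level of the 3 subunits. It measured 3326, 3851 and 3479 in siCtrl, 4504, 4147 and 3807 in siQKI, and 4200, 4352 and 4494 in siRBFOX2 libraries. The siQKI libraries overlapped with siCtrl and the siRBFOX2 libraries did not. The rise was 0.22 ± 0.08 in siQKI (adjusted p = 0.0322) and 0.29 ± 0.08 in siRBFOX2 (adjusted p = 0.00892). The siQKI call was lost in 6 of 18 alternative settings (adjusted p from 0.00779 to 0.146), among them the omission of siCtrl replicate 1 or 3 or siQKI replicate 1 or 2. Per kilobase of transcript, the siCtrl libraries held 20293 ± 548 normalized counts of RRM1, 14044 ± 237 of RRM2 and 720 ± 54.8 of RRM2B (SD, n = 3).

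**Figure D2:**
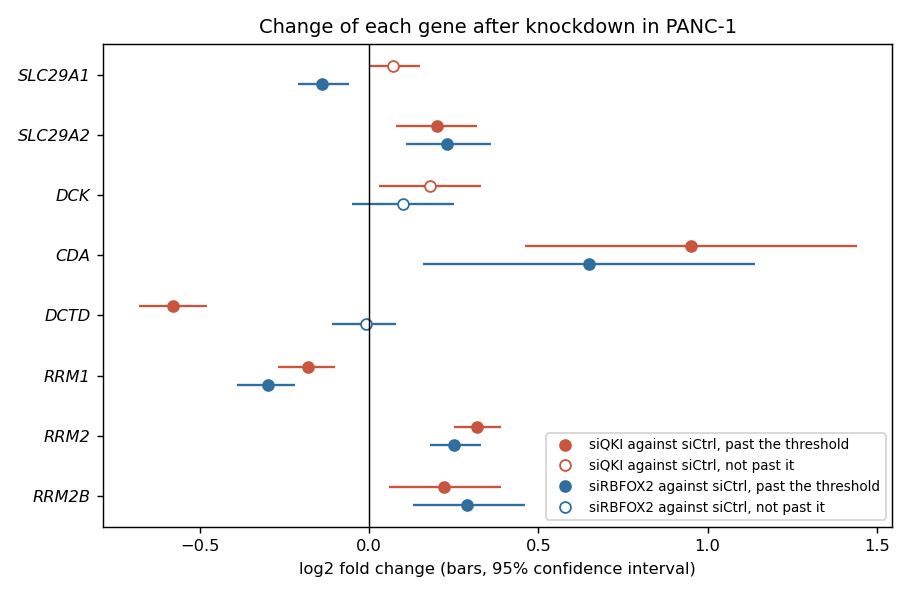
Log2 fold change of the 8 genes in siQKI and siRBFOX2 against the same siCtrl libraries, with 95% confidence intervals. Filled points passed an adjusted p of 0.05 by limma, and the intervals of the knockdowns lie apart for SLC29A1 and DCTD but touch or overlap for the other genes.

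Directly compared, siQKI and siRBFOX2 libraries differed in 3 of the 8 genes, with SLC29A1 and RRM1 higher and DCTD lower in siQKI. Over all genes tested 21.5% differed, 9.93% higher and 11.6% lower in siQKI. Pearson's r was taken on log2(normalized count + 1) over the 9 PANC-1 libraries, among genes with a symbol and a mean of at least 50. Running most closely with DCTD were TNFRSF10B (r = 0.996) and TJAP1 (0.993), a description of 3 groups of 3 that carries no test. The closest to RRM1 were MBOAT1 and TTK (both 0.993), and to RRM2 CRIM1 (0.993) and PM20D2 (0.991). For SLC29A1 they were TMEM187 (0.990) and SHH (0.987), for SLC29A2 NUDT18 (0.989) and DHRS4-AS1 (0.985), for RRM2B NFAM1 (0.966) and FANCF (0.962), and for CDA ELOVL6 (0.952) and SPATA2L (0.941).

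The letters bound by the depleted proteins were looked for in the 3' UTRs of the 10 genes, on the transcript strand of the principal GENCODE v29 transcript. For QKI, which binds RNA as part of the STAR family, the letters ACTAAC were searched, together with the form that ends in T. For RBFOX2 the letters were TGCATG. A QKI match was found only in RRM2 and RRM2B, 1 each. Among 3' UTRs within 20% of their length, 47.3% and 67.7% hold at least 1. DCTD, the gene with the clearest siQKI response, had none in its 1144 bases, where 28.8% of 3' UTRs of like length hold 1. A RBFOX2 match was found in SLC29A2 (1), SLC28A3 (4), RRM2 (1) and RRM2B (2). Among 3' UTRs of like length, 23.8%, 58%, 46.4% and 65.8% hold at least 1. RRM2 and RRM2B held matches of both kinds. SLC29A2 and CDA, called higher in both knockdowns like RRM2 and RRM2B, held no QKI match, and CDA no RBFOX2 match. The matches of RRM2 are shown in windows of 30 bases with the match in capitals.
RRM2 QKI match: attctcctgaccACTAATgggagccaattc
RRM2 RBFOX2 match: aagctgagacatTGCATGaaagatgatgag
A match of letters does not show binding, and no match says only that these letters are not in this window. Introns and other exons of the 10 genes were not searched for these letters, and splicing of the genes was not examined.

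RefSeq promoters (GRCh38.p14) were found for 7 of the 10 genes, and not for SLC29A2, SLC28A3 and RRM2B. For each gene the start site nearest the upstream end of its record was taken, which need not be the one most used. GENCODE v29 places the start of RRM2 further upstream, at chr2:10120698. Promoters of other start sites were not searched. The 250 bases before the start sites of RRM1 (chr11:4094435-4094684, plus strand) and RRM2 (chr2:10122318-10122567, plus strand) are shown since these subunits of 1 enzyme moved in opposite directions, with CCAAT boxes (CCAAT or ATTGG) in capitals.
RRM1: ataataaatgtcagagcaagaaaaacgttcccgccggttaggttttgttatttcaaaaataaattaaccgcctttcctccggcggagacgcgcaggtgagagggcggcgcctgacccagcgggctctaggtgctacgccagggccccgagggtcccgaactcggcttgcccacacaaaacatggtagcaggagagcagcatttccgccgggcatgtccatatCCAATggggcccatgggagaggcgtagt
RRM2: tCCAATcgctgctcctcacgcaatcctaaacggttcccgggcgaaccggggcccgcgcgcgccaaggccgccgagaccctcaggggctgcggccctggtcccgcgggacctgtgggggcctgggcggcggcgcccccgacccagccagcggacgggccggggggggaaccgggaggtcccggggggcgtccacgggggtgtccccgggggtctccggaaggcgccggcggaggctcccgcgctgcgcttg
Each held 1 CCAAT box, at -28 in RRM1 and at -249 in RRM2, and 1 GC box (GGGCGG or CCGCCC). In windows of 300 bases from 250 before to 50 after the start, 34.6% of 35116 promoters hold a CCAAT box and 45.0% a GC box. Neither gene had an E2F match (TTTCCCGC, TTTCGCGC, TTTGCCGC or TTTGGCGC on either strand), which 3.31% of promoters hold, while CDA and DCK had 1 each.

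Around these genes, 35 other genes of nucleoside transport and pyrimidine metabolism were examined, all of which were tested in PANC-1. In siQKI 5 were higher and 19 lower (median log2 fold change -0.14, beside 0.025 over all genes tested), and with upper-quartile rescaling 8 were higher and 15 lower. In siRBFOX2 5 were higher and 13 lower (median -0.08, beside 0.011), and 7 and 13 with that rescaling. Over all genes tested, 14.9% were higher and 18.1% lower in siQKI, and 12.0% and 14.5% in siRBFOX2. Of 4 later kinases, which add the further phosphates to nucleoside monophosphates and diphosphates, 3 fell in siQKI and 1 in siRBFOX2. CMPK1, the kinase that acts after DCK, was 167631, 166458 and 167544 in siCtrl, 94214, 99573 and 99837 in siQKI, and 134900, 135512 and 147421 in siRBFOX2 libraries. The 3 groups were apart. CMPK1 fell by 0.77 ± 0.04 in siQKI (adjusted p = 2.88e-09) and by 0.26 ± 0.04 in siRBFOX2 (adjusted p = 1.95e-04), and the direct comparison gave -0.51 ± 0.04 (adjusted p = 5.26e-07). NME1 and NME2, neighbouring nucleoside diphosphate kinases with similar sequences that counting may split unevenly, fell in siQKI (-0.33 ± 0.05 and -0.27 ± 0.05) and had values of -0.12 and 0.05 in siRBFOX2, neither past the test. CMPK2, low and variable in PANC-1, passed the test in neither knockdown (1.08 and 0.22).

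Some other genes of the list, named next, moved in the same direction in both knockdowns. Not all did. DUT rose in siQKI (0.19, adjusted p = 0.0202 by limma) and fell in siRBFOX2 (-0.21, adjusted p = 0.0139). NT5C2, TYMP and ABCC5 were called in siRBFOX2 only, each higher. NT5E, the ecto-5'-nucleotidase CD73, fell by 0.79 ± 0.06 in siQKI (adjusted p = 9.78e-08) and by 0.78 ± 0.06 in siRBFOX2 (adjusted p = 2.75e-07). ABCC4, an efflux pump for nucleotide analogs, rose by 0.63 ± 0.05 (adjusted p = 1.46e-07) and 0.76 ± 0.05 (adjusted p = 5.45e-08). SLC29A4, a transporter of the same family as SLC29A1, rose by 0.71 ± 0.10 (adjusted p = 4.08e-05) and 0.61 ± 0.10 (adjusted p = 2.86e-04). PNP, purine nucleoside phosphorylase, fell by 0.78 ± 0.06 in siQKI (adjusted p = 9.30e-08) and by 0.49 ± 0.06 in siRBFOX2 (adjusted p = 1.66e-05), a difference between the knockdowns of -0.29 ± 0.06 (adjusted p = 0.00192). In pyrimidine synthesis 6 of 7 genes fell in siQKI, with CTPS2 higher, and 3 of 7 fell in siRBFOX2, among them thymidylate synthase TYMS (-0.36 ± 0.04, adjusted p = 3.81e-06).

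RRM1 and RRM2 are transcribed with S phase, so genes of DNA replication and the cell cycle were set beside them. Of 16 such genes, 0 were higher and 8 lower in siQKI (median -0.09), and with upper-quartile rescaling 2 were higher and 6 lower. In siRBFOX2 1 was higher and 14 lower (median -0.29), and 1 and 13 with that rescaling. PCNA, the replication clamp, fell by 0.10 in siQKI (adjusted p = 0.0252) and by 0.35 in siRBFOX2 (adjusted p = 1.88e-06). In the direct comparison 8 of the 16 were higher in siQKI and 0 lower, beside 9.93% and 11.6% of all genes tested. RRM2B is a p53 target, and of 12 other p53 targets 6 were higher and 4 lower in siQKI (median 0.11). In siRBFOX2 4 were higher and 2 lower (median 0.02). Over all genes tested, 14.9% were higher and 18.1% lower in siQKI, and 12.0% and 14.5% in siRBFOX2. Among the p53 targets, BTG2 rose by 0.73 ± 0.15 (adjusted p = 0.00126 by limma) and FAS fell by 0.64 ± 0.21 (adjusted p = 0.0295) in siQKI. TP53I3 rose by 0.75 ± 0.06 (adjusted p = 6.61e-07) in siRBFOX2. CDKN1A rose by 0.36 in siQKI (adjusted p = 7.05e-05) and was at -0.03 in siRBFOX2 (adjusted p = 0.710). The part of the cell cycle or of p53 in the values of RRM1, RRM2 and RRM2B was not tested.

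**Figure D3:**
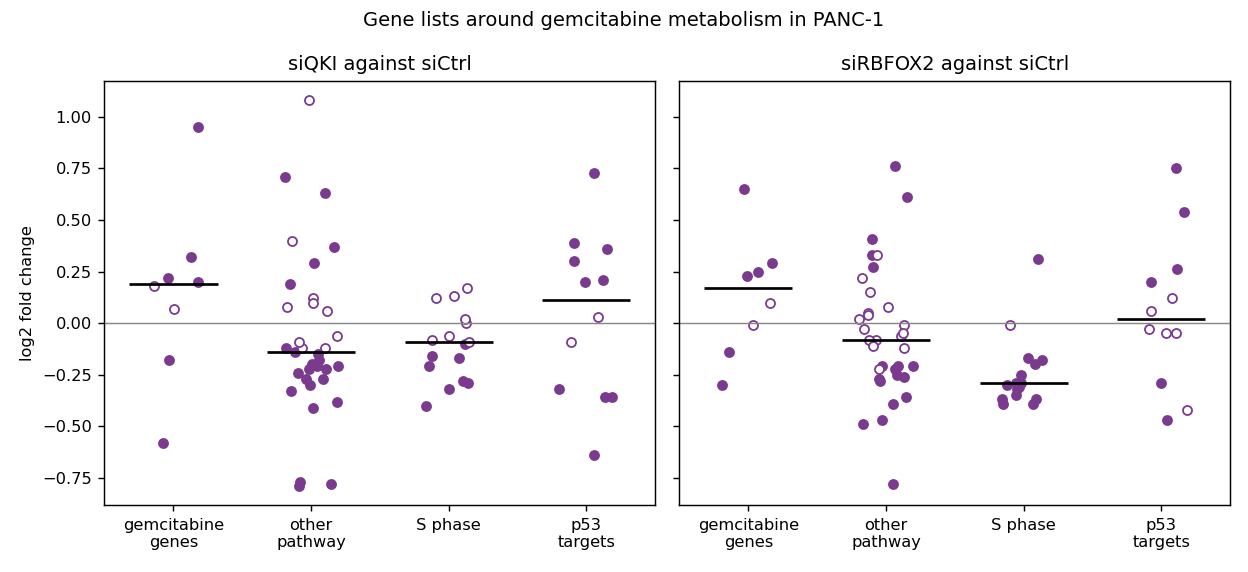
Log2 fold change of each tested gene of 4 lists in siQKI and siRBFOX2 against siCtrl. Filled points passed an adjusted p of 0.05 by limma and black lines are medians, with the S phase genes of siRBFOX2 mostly below 0 (14 of 16 lower). SLC28A2, not past the test in either knockdown, lies outside the axis at 2.13 and 2.95.

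The 2 cell lines were next compared in their siCtrl libraries. The tables were normalized separately, so values were rescaled to a total of 1000000 for each library and no test was run, and line, passage and library preparation cannot be told apart. The lines differed widely, with 53.2% of 24673 genes at least 2-fold apart (26.1% higher and 27.1% lower in HPAF-II) and 63.7% without overlap of the 3 libraries each. HPAF-II had the epithelial markers CDH1 (196 against 2.87 rescaled counts) and EPCAM (423 against 13.8), and PANC-1 the mesenchymal marker VIM. HPAF-II replicate 1 stood apart in VIM, with 4248 normalized counts against 81.3 and 85.3 in the other HPAF-II libraries. Replicate 3 stood apart in other genes, among them BAX (45637 against 15369 and 16232) and CMPK1 (114210 against 221545 and 246923). Of the 10 genes these included SLC29A2 (13287 against 8434 and 7904) and CDA (8185 against 5656 and 5231), both higher. RRM1 (33212 against 44518 and 44031) and SLC28A3 (2016 against 2671 and 2706) were lower in it. These genes were chosen after their values were seen. QKI itself was 14.5 ± 2.76 in HPAF-II and 74.2 ± 3.27 in PANC-1. Of the 10 genes, 5 were at least 2-fold apart and 7 did not overlap, shares close to those of all genes. Without HPAF-II replicate 1, 6 of the 10 were at least 2-fold apart, and without replicate 3, 5 were.

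Among the 10 genes, transcripts of SLC29A1, SLC28A3, CDA and RRM2B differed by at least 2-fold without overlap. SLC29A1 was 210, 205 and 205 rescaled counts in PANC-1 and 27.5, 26.3 and 28.0 in HPAF-II, 7.59-fold lower in HPAF-II. SLC28A3 was 0.138, 0 and 0 in PANC-1 and 9.55, 9.42 and 7.09 in HPAF-II. SLC28A1 was listed at 0 in all PANC-1 libraries and at 0, 0.128 and 0.0710 in HPAF-II, so its place among the 5 genes rests on values near 0. SLC29A2 was 17.9, 18.7 and 16.8 in PANC-1 and 30.1, 27.5 and 46.7 in HPAF-II, 1.91-fold higher. Its log2 ratio was 0.93, passed 1 when HPAF-II replicate 1 (1.01) or 2 (1.08) was left out, and was 0.70 without replicate 3.

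CDA was 1.21, 1.19 and 1.58 in PANC-1 and 20.2, 18.2 and 28.8 in HPAF-II, 16.6-fold higher in HPAF-II, with a log2 ratio of 4.05 and of 3.86 without HPAF-II replicate 3. This exceeds its rise in either knockdown of PANC-1, and the log2 ratio lay between 3.78 and 4.19 under the other settings tried. RRM2B was 9.82, 11.1 and 10.1 in PANC-1 and 3.45, 2.32 and 3.90 in HPAF-II, 3.27-fold lower. The remaining genes were less than 2-fold apart. DCTD was 105 to 116 rescaled counts in PANC-1 libraries and 119 to 128 in those of HPAF-II, a ratio that turned to -0.14 on the log2 scale with the deposited values in place of 0.14. RRM1 was 179 to 186 against 117 to 159, without overlap. DCK (12.2 to 13.7 against 11.3 to 19.4) and RRM2 (137 to 144 against 110 to 143) overlapped between the lines.

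**Figure D4:**
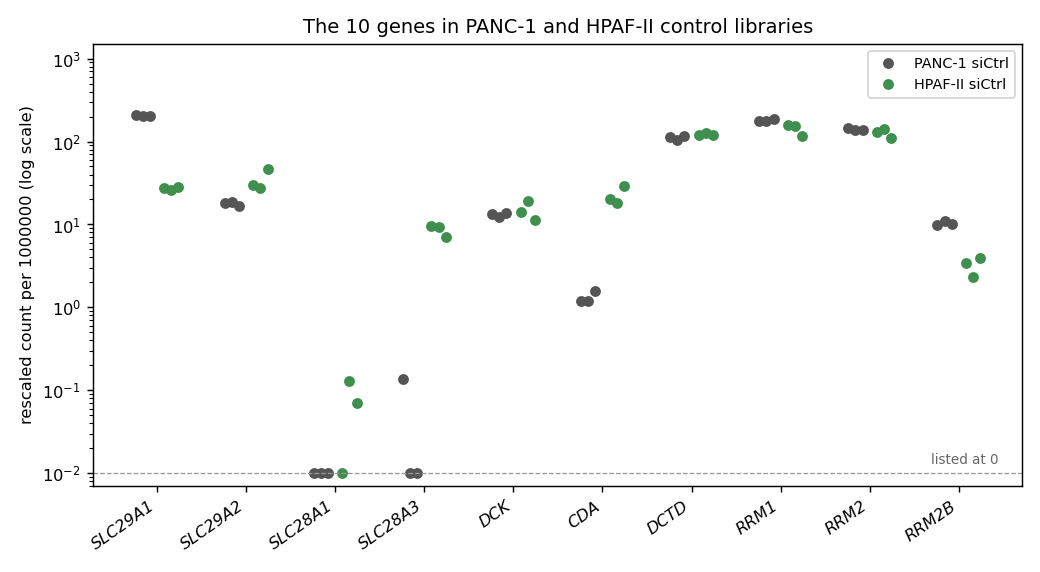
Rescaled counts per 1000000 (log axis) of the 10 genes in the 3 siCtrl libraries of PANC-1 and of HPAF-II, each point 1 library, with values listed at 0 drawn on the dashed line. SLC29A1 and RRM2B sit lower and CDA and SLC28A3 higher in HPAF-II.

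The order of the genes by level, per kilobase of transcript, also differed. In PANC-1 siCtrl it ran from SLC29A1 (30587 normalized counts per kb) over RRM1 (20293), DCTD (19503), RRM2 (14044), SLC29A2 (2433), DCK (1656) and RRM2B (720) to CDA (474). SLC28A3 (3.20) and SLC28A1 (0) came after these. RRM1 and DCTD, neighbours in this order, overlapped between libraries (19747 to 20842 and 18600 to 20265). In HPAF-II it ran from DCTD (17680) over RRM1 (13195), RRM2 (10608), CDA (6602), SLC29A2 (3928), SLC29A1 (3323), DCK (1563), SLC28A3 (504) and RRM2B (185) to SLC28A1 (6.84). There RRM1 (10797 to 14473) overlapped with RRM2 (9143 to 11954), and SLC29A2 (3144 to 5285) with SLC29A1 (3247 to 3415).

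Of the 35 pathway genes, 34 could be compared between the lines, and 4 were at least 2-fold higher and 9 lower in HPAF-II. Over all genes compared, 26.1% were higher and 27.1% lower. UPP1, uridine phosphorylase, was 6.66 ± 1.97 rescaled counts in HPAF-II and 108 ± 1.88 in PANC-1, and TYMP, thymidine phosphorylase, was 5.42 ± 1.17 and 24.2 ± 0.405. SLC29A4 was 0.334 ± 0.208 and 7.93 ± 0.607, and the mitochondrial nucleotidase NT5M was 0.0164 ± 0.0182 and 4.21 ± 0.598. The opposite was seen for CMPK2, a mitochondrial kinase (11.5 ± 1.67 and 0.149 ± 0.10), and for CTP synthase CTPS2 (17.0 ± 2.78 and 2.39 ± 0.299). These 6 were the pathway genes at least 4-fold apart without overlap. Among the other lists, 1 of 16 S phase genes and 5 of 12 p53 targets were at least 2-fold apart, beside 53.2% of all genes compared.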

How the data were processed

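Polyadenylated RNA was prepared with the Universal Plus mRNA-Seq kit and sequenced as read pairs (Illumina NovaSeq). The submitters' processing notes name STAR 2.7.5a, FastQC, Picard, SAMtools and DESeq2, and build hg38, and the genes are those of FAST DB. The deposited signal is the count of each gene after the authors' DESeq2 size-factor scaling, done apart for the 9 PANC-1 and the 3 HPAF-II libraries. Read from the steps between values (whole within 0.01), the size factors were 0.877 to 1.15 and 0.810 to 1.09, and totals were 292248837 to 376192091 and 226697015 to 309720537 steps. A step is not a fragment, so no count model was used, and precision comes from the replicates. Strandedness of the counting is not given in the sources used here.

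For PANC-1, log2(normalized count + 1) was fitted by limma 3.58.1 (R 4.3.3; eBayes with trend) to all 9 libraries without a block, keeping genes whose mean reached 10, with Benjamini-Hochberg adjustment at 0.05. The pseudocount understates changes of low genes. The procedure was tested on simulated data. Between lines, log2(rescaled count + 0.01) was averaged per group. Python 3.11.15, numpy 2.4.6, pandas 2.3.3 and matplotlib 3.10.9 were used. Alternatives were pseudocounts of 0.1 and 10, no filter or a mean of at least 50, upper-quartile rescaling, a replicate block, no trend, fits restricted to the compared groups, an adjusted p under 0.01 and each library left out, and between lines also median-of-ratios rescaling and the deposited values.

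The 10 genes were taken by symbol and not by value, but they and the lists were chosen with earlier results of these data known. Named are the 10 genes, QKI, RBFOX2, list genes called with at least a 1.5-fold change against siCtrl, pathway genes at least 4-fold apart between lines without overlap, and for each called gene the 2 with a mean of at least 50 and the highest Pearson's r. Others (NME1, NME2, CTPS2 in siQKI, DUT, NT5C2, TYMP and ABCC5 in PANC-1, TYMS, PCNA, CDKN1A, BAX, CMPK2 in PANC-1) were named after their values were seen.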

Additional observations from a re-analysis of the deposited data

How the results depend on the processing

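Under the alternatives, 4 to 8 of the 8 genes were called in siQKI, 4 to 6 in siRBFOX2 and 2 to 3 between the knockdowns, and 4 to 6 of the 10 genes were at least 2-fold apart between the lines. At an adjusted p under 0.01, the calls over all genes dropped to 3854 in siRBFOX2 and 3105 between the knockdowns, a stricter threshold by construction. DCTD in siRBFOX2, not called in any setting, turned to 0.02 with upper-quartile rescaling (adjusted p = 0.806) and ranged from -0.05 to 0.01 with single libraries left out. Libraries with the same replicate number did not deviate together (r from -0.032 to 0.023). This check weighed every gene tested alike, low ones included, and cannot exclude a small effect shared by libraries of the same number. With the replicate block, 7 of the 8 genes were called in siQKI, DCK being added, 5 in siRBFOX2, CDA being lost (adjusted p = 0.0689), and 3 between the knockdowns. With 3 libraries a group, the interval of CDA spans 0.46 to 1.44 in siQKI, and the depth in fragments is unknown.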
